A study of Mus musculus with 6 samples.

Results

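The C-type lectin and killer lectin receptors form a family of cell surface proteins that share a folded domain first known for binding sugars. They were read here from RNA of mouse osteoclasts, the multinucleated cells that resorb bone. Members were all genes on the array whose name begins with Clec and a number, the Cd209 family, Cd207, Cd69, Mrc1, Mrc2 and the killer lectin genes Klra, Klrb, Klrc, Klrd, Klrg and Klrk. The rule found 71 genes, carried by 113 probes, of 37074 gene names on 56605 probes. The study had 6 samples on 6 Agilent one-colour arrays, 3 labelled Ano1fl/fl and 3 labelled Ctsk-Cre;Ano1fl/fl. All mice carried 2 floxed alleles of Ano1, which encodes a calcium-activated chloride channel, and those of the second group also carried a Cre recombinase driven by the cathepsin K gene, which is active in osteoclasts. The controls were littermates without Cre. Marrow cells of mice aged 6 to 8 weeks were grown into macrophages and given RANKL, the cytokine that induces osteoclasts, for 5 days. Each array held RNA of osteoclasts from 1 mouse, and the comparison asked which RNAs differ when Ano1 is deleted in these cells.

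Lectin receptors let myeloid cells recognise sugars of fungi, bacteria and dying cells. Some signal through an ITAM, a tyrosine motif that recruits the kinase Syk, carried by the receptor itself or by the adaptors FcRγ (Fcer1g) and DAP12 (Tyrobp). Others carry an inhibitory motif, and a further set takes up its ligands by endocytosis. Osteoclasts are known to need ITAM signalling beside RANKL, and the killer lectin receptors, best known from natural killer cells, are encoded close to their Clec2 ligands in 1 gene complex on mouse chromosome 6.

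The direction of every difference rests on the array labels. Ano1 had 1 probe, whose processed signal was 3.28, 3.22 and 3.91 in the Ano1fl/fl group and 3.23, 3.25 and 3.81 in the other. The dimmest signals that passed background were 15.0 to 18.4, so the deleted gene could not check the labels. Of 13 osteoclast markers, 13 were higher under the label Ctsk-Cre;Ano1fl/fl, with a summed signal of 579144 to 610690 against 213834 to 264367. The study describes lower RNA of such markers in osteoclasts lacking Ano1, so the arrays as labelled run the opposite way. Whether the group labels were exchanged at deposit was not tested, and an exchange would turn the sign of every difference given here. Arrays are called by their labels throughout. Among 14 stromal cell markers, 11 were higher and 2 lower, with summed signals of 53412 to 94088 against 4007 to 4633. The neutrophil list had 1 of 11 higher and 8 lower (179440 to 249457 against 330703 to 390150). In RNA from a whole culture, a change in the number of cells of a type and a change in RNA per cell cannot be told apart. Across probes, which are not independent replicates, arrays of 1 group had a Pearson's r of 0.994 to 0.997 and arrays of different groups one of 0.944 to 0.950.

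Values below are log2 signals after quantile normalization between the 6 arrays, and a difference is the mean of the 3 Ctsk-Cre;Ano1fl/fl arrays minus that of the 3 Ano1fl/fl arrays, with the standard error and the Benjamini-Hochberg adjusted p from limma's moderated linear model over all 31848 probes tested. A gene was read at its brightest probe and tested where the scanner's mark put that probe well above background on every array of 1 group or both. Each group has n = 3. Of the 71 genes, 51 were tested and 20 were not. On all 6 arrays, 41 genes were well above background. A further 4 passed through the Ctsk-Cre;Ano1fl/fl arrays alone and 6 through the Ano1fl/fl arrays alone, and for these 10 the filter itself favours a difference.

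On the Ctsk-Cre;Ano1fl/fl arrays, 17 of the 51 lectin receptor genes tested were higher (33.3%) and 19 were lower (37.3%), at an adjusted p under 0.05. The remaining 15 did not pass. Over all 20645 genes tested, 23.0% were higher and 28.5% lower. Past 2-fold as well, 12 lectin receptor genes were higher (23.5%) and 15 lower (29.4%), against 9.89% and 7.19% of all genes. These counts were 10 and 7 with normexp background correction and 10 and 9 with the series matrix, so that which side is larger depends on the setting. The groups did not overlap in 40 of the 51 (78.4%), against 64.0% of all genes tested. The median difference was -0.19 over the lectin receptor genes and -0.06 over all genes. Among the 41 genes above background on all arrays, 14 were higher and 16 lower. Where 2 or more probes of a gene were tested, in 18 genes, the probes pointed the same way in all 18 and gave the same call in 17.

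**Figure D1:**
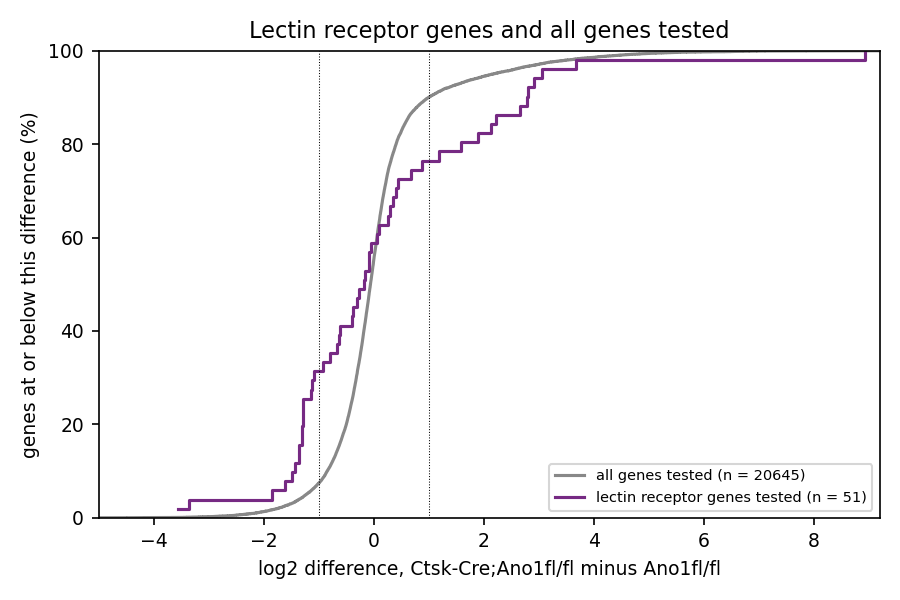
Cumulative share of genes (percent) against the log2 difference between the Ctsk-Cre;Ano1fl/fl and Ano1fl/fl arrays, for all 20645 genes tested and for the 51 lectin receptor genes tested, with dotted lines at 2-fold. The lectin curve lies above that of all genes around 2-fold lower and below it around 2-fold higher, where 15 of its genes fell and 12 rose by more than 2-fold (7 and 10 with normexp, 9 and 10 with the series matrix).

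The endocytic lectins held both the largest rise and the largest fall. Of 13 genes, 8 were tested, 3 rose, 4 fell and 1, Cd209d, was not called. Cd209f and Cd209g are mouse relatives of DC-SIGN, a receptor of dendritic cells that binds mannose-rich sugars. The signal of Cd209f was 3.41, 2.85 and 1.69 on the Ano1fl/fl arrays, none of them above background, and 11.45, 11.70 and 11.61 on the Ctsk-Cre;Ano1fl/fl arrays. It went from undetected to clearly bright in all 3 samples, at least 196-fold higher, the bound being set by the dimmest probes that pass background on the Ano1fl/fl arrays (adjusted p = 2.56e-05). For Cd209g the values were 5.60, 5.58 and 5.37 on the Ano1fl/fl arrays against 9.09, 9.34 and 9.17 on the Ctsk-Cre;Ano1fl/fl arrays, a rise of 12.9-fold (3.69 ± 0.10 SE, limma's adjusted p = 7.14e-06). Background correction by normexp, which adds an offset that shrinks differences between dim signals, gave 5.45 for Cd209f and 2.59 for Cd209g, and the deposited series matrix, which keeps the background in its signals, gave 6.39 and 3.00, all called. With the mean of its probes Cd209g differed by 4.89. Its other probe was below background on the Ano1fl/fl arrays and at least 14.4-fold higher on the Ctsk-Cre;Ano1fl/fl arrays. No other member of the family was called. Cd209d read 5.99, 6.66 and 6.50 against 6.04, 5.99 and 5.95, which overlap (adjusted p = 0.102). Cd209b, Cd209c and Cd209e were below background on all 6 arrays, and Cd209a was above it on 2 of the 3 Ano1fl/fl arrays and none of the others.

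The probes of Cd209f and Cd209g lie at chr8:4102798-4102857 and chr8:4137651-4137710 in mm9, within the Cd209 cluster. They were not among the probe pairs with similar sequence described further on. The RefSeq sequence upstream of each gene is shown because the 2 genes rose together. The windows are the 250 bases before the start, in GRCm38.p6, at chr8:4105765-4106014, minus strand, for Cd209f and chr8:4134486-4134735, plus strand, for Cd209g. Capitals mark TGANTCA, the motif of the AP-1 factors (Fos and Jun), of which c-Fos is needed for osteoclast formation.
Cd209f: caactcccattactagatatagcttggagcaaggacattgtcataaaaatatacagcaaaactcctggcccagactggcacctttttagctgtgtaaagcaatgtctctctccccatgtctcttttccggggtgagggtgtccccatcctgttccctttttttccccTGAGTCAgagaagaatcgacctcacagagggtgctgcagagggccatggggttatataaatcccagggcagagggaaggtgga
Cd209g: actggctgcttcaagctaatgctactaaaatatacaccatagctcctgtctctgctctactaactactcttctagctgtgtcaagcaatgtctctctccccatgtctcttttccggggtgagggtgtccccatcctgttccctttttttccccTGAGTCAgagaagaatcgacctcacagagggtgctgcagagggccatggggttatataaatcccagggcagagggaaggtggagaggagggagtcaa
The windows were 77.7% identical in a global alignment and shared an unbroken run of 154 bases that holds the motif and ends at the start of Cd209f and 14 bases before that of Cd209g. Between the other 20 pairs of Cd209 windows the longest identical run was 7 to 12 bases. Of the 7 Cd209 windows, those of Cd209f and Cd209g were the ones with the motif.

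The motif was 1 of 4 searched, on both strands, in the windows of the 53 lectin receptor genes that have one in the table. A gene counted if any of its windows matched, and the 53 genes have 59 windows, while the shares over all are of single windows. The 2 measures are therefore not alike. TGANTCA was found in 8 of the 53 genes and in 6.7% of all 32851 windows. Among the 8 are Cd209f and Cd209g, which hold it in the run they share. The M-box TCANGTGA, bound by MITF, was in 2 of the 53 and 3.5% of all windows. GAGGAAGT, a PU.1 core, was in 0 of the 53 and 2.4% of all. TGGAAA, the NFAT core, was in 16 of the 53 and 18.6% of all. Among called genes with a window, TGANTCA was in 2 of the 14 that were higher and 3 of the 12 that were lower, and TGGAAA in 5 and 3. A match describes these letters only.

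Mrc2 encodes Endo180, which takes up collagen fragments and is best known from fibroblasts and other mesenchymal cells. Its probe read 2.69, 1.98 and 1.71 on the Ano1fl/fl arrays, all below background, and 5.78, 5.21 and 4.55 on the Ctsk-Cre;Ano1fl/fl arrays, all above it. This made it at least 2.32-fold higher (adjusted p = 0.000935), and its other 2 probes were below background on all 6 arrays. Its difference was 0.56 with normexp and 0.93 with the series matrix, both called. Of 14 stromal markers, 11 moved the same way, Lepr (-0.69) and Runx2 (-0.46) were lower and 1, Thy1, was not called. Lum and Pdgfra were below background on all Ano1fl/fl arrays and above it on all Ctsk-Cre;Ano1fl/fl arrays. The part of these markers in the rise of Mrc2 was not tested.

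Mrc1, the macrophage mannose receptor (CD206), moved the opposite way to Mrc2. Its signal was 12.85, 12.76 and 12.96 on the Ano1fl/fl arrays against 11.48, 11.51 and 11.51 on the Ctsk-Cre;Ano1fl/fl arrays, a narrow spread in both groups and a fall of 2.56-fold (-1.36 ± 0.08 SE; adjusted p = 6.67e-05). Clec10a, which binds galactose-type sugars on macrophages and dendritic cells, read 13.41, 12.74 and 13.42 against 10.00, 9.65 and 9.87. It was 10.2-fold lower (-3.35 ± 0.21 SE; adjusted p = 7.52e-05), the largest fall among members measured in both groups. Langerin (Cd207), the lectin of Langerhans cells, read 5.33, 6.28 and 7.06 on the Ano1fl/fl arrays against 3.89, 2.42 and 1.69 on the Ctsk-Cre;Ano1fl/fl arrays, where no array was above background. It was at least 4.46-fold lower (adjusted p = 0.00478), and its difference was -0.99 with normexp and -1.28 with the series matrix. Clec4g (LSECtin), known from sinusoidal endothelium, was faint at 4.48, 4.98 and 5.20 against 2.79, 4.43 and 3.51, with 1 of the latter above background. Its difference of -1.31 (adjusted p = 0.0376) lost its call without Ano1fl/fl array 1, 2 or 3, or without Ctsk-Cre;Ano1fl/fl array 1 or 3. The call was also lost with no filter on dim probes (adjusted p = 0.110) and under the methods' t-test with Benjamini-Hochberg (0.111). Its difference was -0.29 with normexp and -0.48 with the series matrix. Beside these falls, of 11 macrophage markers tested, 2 were higher and 4 lower, Cx3cr1 by -4.62 and Ccr2 by -3.36, while Csf1r differed by -0.04 (adjusted p = 0.743). Of 12 dendritic cell markers tested, 3 were higher and 1 lower. The part of either list in the falls was not tested.

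**Figure D2:**
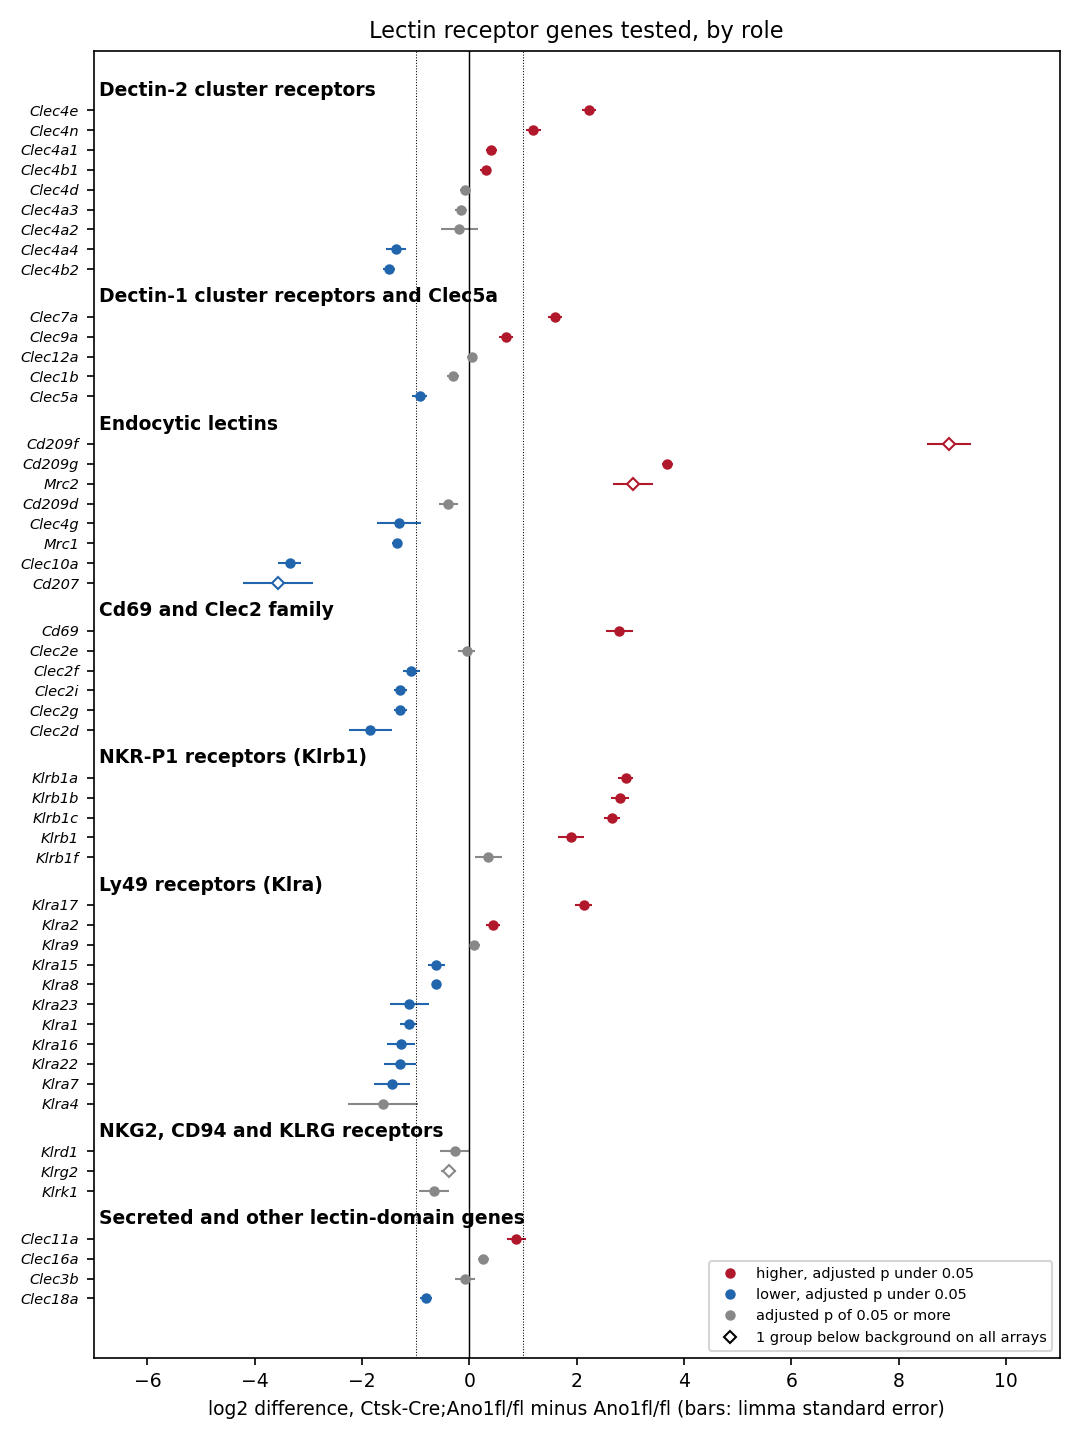
Log2 difference between the Ctsk-Cre;Ano1fl/fl and Ano1fl/fl arrays for the 51 lectin receptor genes tested, grouped by role, with bars for limma's standard error and dotted lines at 2-fold. Red marks the 17 genes that were higher, blue the 19 that were lower, grey the 15 not called, and open diamonds genes below background on all arrays of 1 group, whose plotted difference is not a measured fold. All 4 called Klrb1 genes lie to the right and all 4 called Clec2 genes to the left.

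The receptors of the Dectin-2 cluster are encoded side by side on chromosome 6, and all 9 were tested. Of these, 4 rose, 2 fell and 3 were not called. Mincle (Clec4e), which binds mycobacterial glycolipids and signals through FcRγ, read 13.39, 13.26 and 13.16 on the Ano1fl/fl arrays against 15.68, 15.55 and 15.26 on the Ctsk-Cre;Ano1fl/fl arrays. It was already bright and rose 4.68-fold (2.23 ± 0.13 SE; adjusted p = 5.86e-05). Dectin-2 (Clec4n), a receptor for fungal mannans that also uses FcRγ, went from 14.00, 13.82 and 14.09 to 15.44, 15.06 and 14.99. That is a rise of 2.28-fold (1.19 ± 0.14 SE; adjusted p = 0.000934). Clec4d (MCL), the gene next to Mincle whose protein pairs with it, was not called, at 16.69, 16.54 and 16.51 against 16.53, 16.59 and 16.38 (adjusted p = 0.488). Its difference was -0.08 ± 0.09 SE, which was not tested against that of Clec4e. Clec4a1 and Clec4b1 rose by 0.41 and 0.30 (adjusted p = 0.0138 and 0.04996). The call of Clec4b1 is at the threshold on its brightest probe, and its other probe rose by 1.21.

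Clec4a4 (DCIR2), an inhibitory receptor of dendritic cells, read 8.89, 9.29 and 9.49 on the Ano1fl/fl arrays against 7.61, 8.06 and 7.92 on the Ctsk-Cre;Ano1fl/fl arrays, a fall of 2.58-fold (-1.37 ± 0.19 SE; adjusted p = 0.00154). The signal of Clec4b2 was 7.92, 8.23 and 8.27 against 6.60, 6.70 and 6.64, a fall of 2.81-fold (-1.49 ± 0.11 SE; adjusted p = 0.000157). The groups of both genes lay apart. Within this cluster of related neighbours, Clec4b1 and Clec4b2 thus had opposite signs. Clec4a2 and Clec4a3, receptors of the DCIR type, differed by -0.19 and -0.16 and were not called.

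In the Dectin-1 cluster and for Clec5a, 5 of 7 genes were tested. Dectin-1 (Clec7a), the β-glucan receptor, which carries its own Syk-recruiting motif, read 14.17, 14.17 and 14.51 on the Ano1fl/fl arrays against 15.93, 16.03 and 15.69 on the Ctsk-Cre;Ano1fl/fl arrays. It rose 3.02-fold (1.60 ± 0.14 SE; adjusted p = 0.000257), and its second probe rose by 1.65. Clec9a, which senses actin exposed on dead cells, rose by 0.67 (adjusted p = 0.00607). Clec12a, an inhibitory receptor for uric acid crystals, was bright and not called, at 15.61, 15.72 and 15.74 against 15.66, 15.89 and 15.67 (adjusted p = 0.667). Clec1b (CLEC-2), the platelet receptor for podoplanin, differed by -0.31 and fell just short of the threshold (adjusted p = 0.056), while 6 of 7 megakaryocyte and platelet markers were lower, whose part in its value was not tested. Clec5a (MDL-1), which signals through DAP12, read 13.68, 13.24 and 13.25 against 12.52, 12.52 and 12.37. It went the other way from Clec7a and Clec4e, with a difference of -0.92 ± 0.14 SE, a fall of under 2-fold (adjusted p = 0.00223), and its other 2 probes differed by -1.05 and -1.22.

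The 9 myeloid receptors listed as signalling through an ITAM or FcRγ are Clec7a, Clec1b, Clec9a, Clec4d, Clec4e, Clec4n, Clec5a, Clec4b1 and Clec4a1. Of these, 6 were higher, 3 of them past 2-fold, and 1, Clec5a, was lower. Of 7 listed as inhibitory, 5 were tested, none was higher and 2, Clec4a4 and Clec4b2, were lower. Over all genes tested, 23.0% were higher and 28.5% lower, and the contrast between these short lists was not tested. The placing of Clec4b2 and Clec4a3 in the inhibitory list is uncertain, as is that of Clec4a1 in the other. In limma's test at an unadjusted p under 0.05 the count of higher genes on the inhibitory list was also 0. The inhibitory list holds Clec12a, Clec12b, Clec4a2, Clec4a3, Clec4a4, Clec1a and Clec4b2 and no killer lectin receptor. The inhibitory receptors Klrb1b and Klra17, described further on, were higher.

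The signalling partners of these receptors were all well above background. Syk read 13.72, 13.50 and 13.66 on the Ano1fl/fl arrays against 14.67, 14.57 and 14.48 on the Ctsk-Cre;Ano1fl/fl arrays, a difference of 0.94 ± 0.09 SE (adjusted p = 0.000445). The adaptor Fcer1g rose by 0.26 (adjusted p = 0.0227) from an already high 17.04. Tyrobp differed by 0.01 (adjusted p = 0.928) and Hcst (DAP10), the adaptor of NKG2D, by -0.19 (adjusted p = 0.109), neither of them called. Card9, which links Syk to NF-κB, fell by 0.76 (adjusted p = 0.0019). Over the 21 partners listed, 11 were higher, 3 lower and 7 not called, with 1, Src at 2.01, past 2-fold. Of 23 genes with a C-type lectin domain that the naming rule leaves out, 16 were tested, 4 were higher and 9 lower. These included Olr1 (1.92), Ly75 (1.67) and Cd302 (1.41) on one side and Mgl2, the close relative of Clec10a, at -0.56 (adjusted p = 0.0159) on the other.

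The natural killer gene complex holds receptors and ligands as neighbours. Its NKR-P1 receptors and its Clec2 genes gave calls of opposite sign, a contrast that was not tested. The Ly49 receptors of the same complex gave 7 lower and 2 higher of 11. Of the 51 tested genes, the NKR-P1 receptors (Klrb1 genes) gave 4 higher, 0 lower and 1 not called of 5, and the Clec2 genes gave 0 higher, 4 lower and 1 not called of 5. Klrb1a read 5.56, 5.56 and 5.15 on the Ano1fl/fl arrays against 8.49, 8.27 and 8.25 on the Ctsk-Cre;Ano1fl/fl arrays, 7.52-fold higher (2.91 ± 0.14 SE; adjusted p = 3.16e-05). Klrb1b, an inhibitory receptor, read 4.58, 4.50 and 4.89 against 7.46, 7.18 and 7.73. It was 6.98-fold higher (2.80 ± 0.17 SE; adjusted p = 7.10e-05). Klrb1c, the NK1.1 antigen by which natural killer cells are recognised in C57BL/6 mice, went from 5.49, 5.03 and 5.34 to 8.0, 7.77 and 8.07. It was 6.31-fold higher (2.66 ± 0.14 SE, limma's adjusted p = 4.81e-05), and its second probe rose by 2.50. The third probe, below background on the Ano1fl/fl arrays, was at least 1.85-fold higher. In each of the 3 genes the lowest Ctsk-Cre;Ano1fl/fl array was more than 2 log2 units above the highest Ano1fl/fl array. Klrb1 itself read 3.97, 3.62 and 4.58, with 1 array above background, against 5.99, 5.78 and 6.06 (adjusted p = 0.00112), and its other 2 probes were below background on all 6 arrays. With normexp the differences of Klrb1a, Klrb1b, Klrb1c and Klrb1 were 1.86, 1.44, 1.52 and 0.56, and with the series matrix 2.28, 1.88, 1.93 and 0.98, all called. Klrb1f was not called, at 6.31, 6.64 and 7.03 against 7.15, 6.58 and 7.32 (adjusted p = 0.271).

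The called Clec2 genes were all lower. Clec2d, also called Clr-b or osteoclast inhibitory lectin for its action on osteoclast formation, is the ligand of Klrb1b. Its signal was 12.33, 12.89 and 12.31 on the Ano1fl/fl arrays against 9.74, 11.23 and 11.03 on the Ctsk-Cre;Ano1fl/fl arrays, of which the first lay well below the others. It fell 3.59-fold (-1.84 ± 0.40 SE; adjusted p = 0.00976), and differed by -1.39 without that array, still past the threshold. Its second probe gave -1.89. Clec2i read 10.00, 10.04 and 9.89 against 8.52, 8.62 and 8.93, a fall of 2.44-fold (-1.28 ± 0.12 SE; adjusted p = 0.000389). For Clec2g the values were 9.11, 9.14 and 8.95 and 7.63, 7.70 and 8.0, a fall of 2.44-fold (-1.29 ± 0.12 SE; adjusted p = 0.000347). Clec2f read 7.58, 7.47 and 7.16 against 6.40, 6.06 and 6.51, 2.12-fold lower (-1.08 ± 0.16 SE; adjusted p = 0.00213). With normexp Clec2f differed by -0.72. In all 4 the groups lay apart. Clec2e stayed near background and was not called (-0.05), and Clec2h and Clec2l were below it on all arrays.

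Cd69, which follows Clec2d on the chromosome and marks early activation of leukocytes, went against its Clec2 neighbours. It read 7.68, 8.18 and 8.31 on the Ano1fl/fl arrays against 10.77, 10.48 and 11.29 on the Ctsk-Cre;Ano1fl/fl arrays, 6.91-fold higher (2.79 ± 0.25 SE; adjusted p = 0.000305), and its second probe rose by 2.71.

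**Figure D3:**
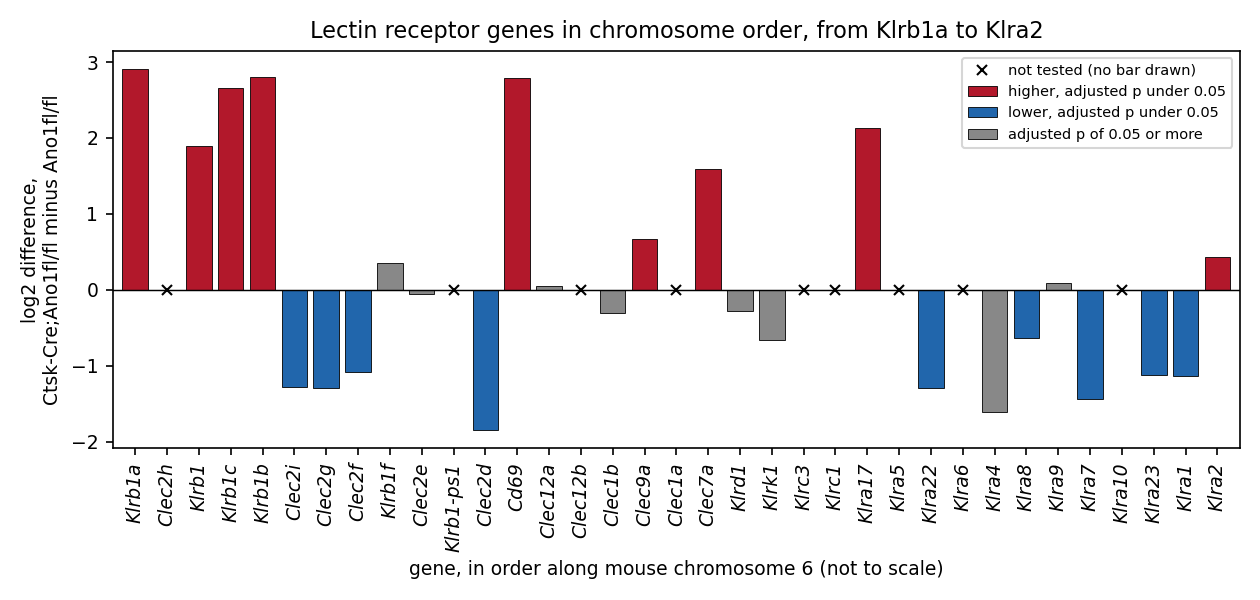
Log2 difference (Ctsk-Cre;Ano1fl/fl minus Ano1fl/fl) of the lectin receptor genes with a chromosome 6 position from Klrb1a to Klra2, in chromosome order and not to scale, with bars coloured by call and crosses for genes not tested. The 4 Klrb1 genes at the left rose, the next 3 Clec2 genes fell, and Clec2d (-1.84) and Cd69 (2.79), which are neighbours, lie on opposite sides of 0.

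Of the 67 members with an mm9 position, 50 lie on chromosome 6. In chromosome order, the called genes of the Dectin-2 cluster alternated in sign from Clec4a1 through Clec4a4, Clec4b1 and Clec4b2 to Clec4n. The alternation ended there, since Clec4d was not called and Clec4e, like Clec4n, was higher. Klrb1a, Klrb1, Klrb1c and Klrb1b were higher, with Clec2h among them not tested. Clec2i, Clec2g and Clec2f followed, all lower, then Klrb1f and Clec2e, not called, and Clec2d, lower. Next to Cd69, Clec9a and Clec7a were the called genes of the Dectin-1 cluster and both were higher. Past the NKG2 genes, Klra17 was higher and the called Ly49 genes after it were lower until Klra2 at the far end.

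Ly49 receptors (Klra genes) bind MHC class I on target cells, and most are known from natural killer cells. Of 16 genes named on the array, 11 were tested, 2 rose and 7 fell. Klra17 (Ly49Q), which is found on plasmacytoid dendritic cells and other myeloid cells rather than on natural killer cells, read 7.52, 7.43 and 7.61 on the Ano1fl/fl arrays against 9.33, 9.93 and 9.68 on the Ctsk-Cre;Ano1fl/fl arrays. It rose 4.38-fold (2.13 ± 0.16 SE; adjusted p = 0.000141), and its second probe by 2.39. Klra2 (Ly49B), also a myeloid member, rose by 0.44 (adjusted p = 0.0306), but its second probe differed by 0.07 and was not called.

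The other called Ly49 genes fell. Klra7 read 6.25, 6.58 and 7.17 against 5.28, 4.67 and 5.74, 2.71-fold lower (adjusted p = 0.0118). Klra22 read 7.42, 7.61 and 8.14 against 6.23, 6.03 and 7.02, 2.46-fold lower (adjusted p = 0.0118). For Klra16 the values were 7.11, 7.11 and 7.48 and 5.88, 5.49 and 6.49, 2.42-fold lower (adjusted p = 0.00702). In each of these the groups lay apart, but by less than the width of the wider group. The calls of Klra7 and Klra22 were lost under the methods' t-test with Benjamini-Hochberg (adjusted p = 0.0532 and 0.0526). Klra1 fell from 5.86, 5.70 and 5.97 to 4.39, 4.86 and 4.87, 2.19-fold (adjusted p = 0.00149). Klra23 read 5.57, 6.10 and 6.06 against 4.79, 4.06 and 5.53 (adjusted p = 0.0421), a call lost on leaving out any Ano1fl/fl array or Ctsk-Cre;Ano1fl/fl array 1 or 2. It was also lost with no filter on dim probes (adjusted p = 0.118) and under the methods' t-test with Benjamini-Hochberg (0.118). With normexp the differences of Klra16, Klra7, Klra1 and Klra23 shrank to -0.75, -0.70, -0.46 and -0.45, and with the mean of its probes Klra22 differed by -0.65. Klra8 and Klra15 fell by less, with differences of -0.63 and -0.62 at the brightest probe. The second probe of Klra15, below background on the Ctsk-Cre;Ano1fl/fl arrays, was at least 1.77-fold lower. Klra4 differed by -1.61 and Klra9 by 0.09, not called.

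Near-identical probes limit how far the Ly49 genes can be read 1 by 1. Of 484 probe pairs of different genes compared within families, 15 were at least 80% identical over 40 or more bases, 14 of them between Klra genes and 1 between Clec2g and Clec2i. No pair of Klrb1 genes reached this. The probes of Klra16 and the brightest of Klra15 have no mm9 position. No probe of Klra15, Klra22 or Klra23 matched a gene in the RefSeq reference used for names, and those of Clec7a matched none either. Whether these 3 Klra names stand for separate genes of these mice was not tested. The Klra22 probe, at chr6:129922175-129922234, lies next to the second Klra15 probe, at chr6:129922274-129922333, so the falls of these 2 genes may not be separate. The stretch of 30 bases shared by 3 Klra probes is shown, with the bases at which they differ in capitals.
Klra23: gtggTaagagaCtggaTaaattCcctcatt
Klra7: gtggTaagagaCtggaTaaattTcctcatt
Klra4: gtggGaagagaTtggaCaaattCcctcatt
Klra23 and Klra7 differed at 1 of 45 overlapping bases, so their differences of -1.12 and -1.44 cannot be assigned to either gene alone. The probes of Clec2g and Clec2i were identical at 47 of 57 bases, of which 30 are shown, with the bases that differ again in capitals.
Clec2g: tgtctagcaTttaccaagagactcttcCta
Clec2i: tgtctagcaCttaccaagagactcttcTta
The differences of these 2 genes were -1.29 and -1.28. Without the Klra genes, 12 of the 19 falls remain.

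The NKG2, CD94 and KLRG receptors gave no call. Klrk1 (NKG2D) read 7.94, 8.53 and 8.93 against 7.64, 7.58 and 8.18 (adjusted p = 0.0893) and Klrd1 (CD94) 7.43, 8.10 and 8.44 against 7.64, 7.47 and 8.04 (adjusted p = 0.437), both overlapping. Klrg2 was at the edge of background (adjusted p = 0.0617), and Klrc1, Klrc3 and Klrg1 were below it on all 6 arrays.

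Markers of T and natural killer cells moved in both directions beside the killer lectin genes. Of 15 tested, 7 were higher, 3 lower and 5 not called, and past 2-fold 5 were higher and 1 lower. Among those higher were Tbx21 (3.27), Lck (2.66), Ncr1 (2.17), Cd2 (1.97), Gzmb (1.72) and Il2rb (0.88). Nkg7 (-1.77), Ccl5 (-0.84) and Cd3e (-0.51) were lower. Prf1 (-0.29) and Gzma (-0.30) were not called, and Eomes was above background on 1 Ano1fl/fl array and no other. Their summed signal was 21495 to 30362 on the Ctsk-Cre;Ano1fl/fl arrays and 45932 to 46791 on the Ano1fl/fl arrays, a sum in which Ccl5 weighs most. Without Ccl5, a sum chosen after seeing the data, the ranges overlap, at 4422 to 9540 and 4002 to 5888. The part of these cells in the killer lectin values was not tested.

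**Figure D4:**
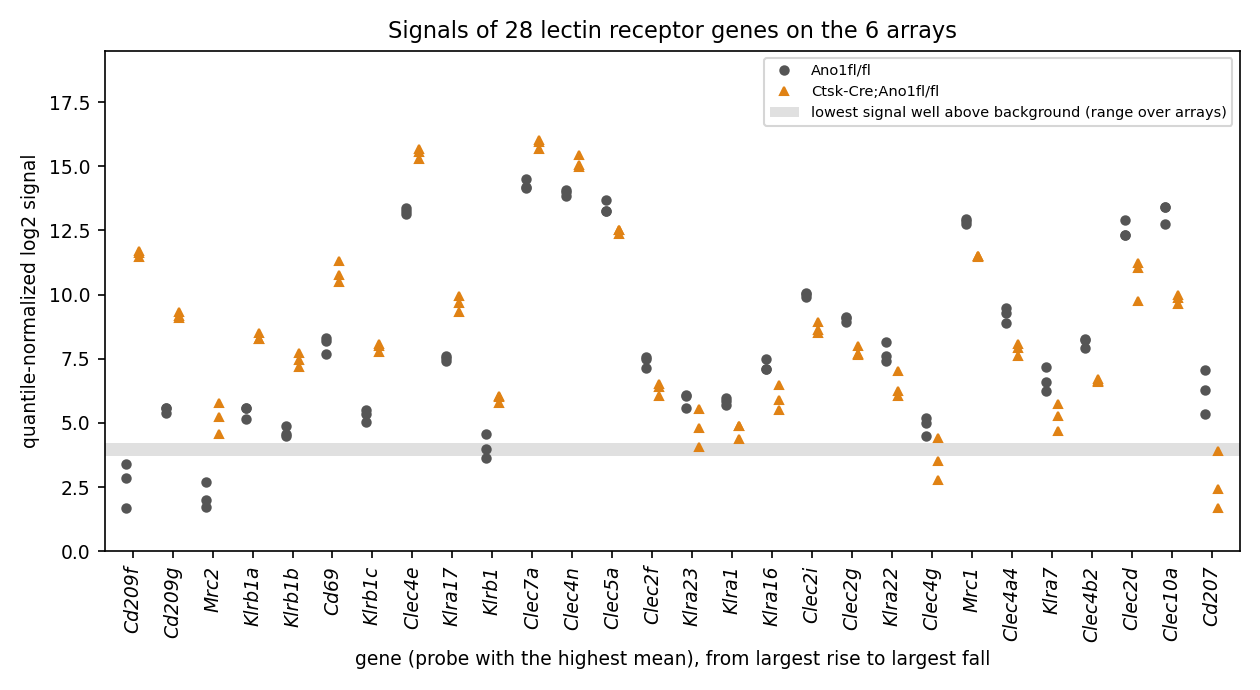
Quantile-normalized log2 signal on each of the 6 arrays for 28 lectin receptor genes, grey circles for the 3 Ano1fl/fl and orange triangles for the 3 Ctsk-Cre;Ano1fl/fl arrays, with a grey band for the lowest signal well above background over the arrays. The 28 genes were chosen mostly for passing an adjusted p of 0.05 and 2-fold, so their lying apart in all 28 follows largely from that choice. The groups lay apart in 40 of the 51 lectin receptor genes tested and in 64.0% of all genes tested. The Ano1fl/fl points of Cd209f and Mrc2 and the Ctsk-Cre;Ano1fl/fl points of Cd207 are not well above background.

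Secreted, vascular and intracellular members gave 1 call in each direction. Of 6 genes, 4 were tested. Clec11a (osteolectin), a secreted factor that promotes bone formation, rose by 0.88 (adjusted p = 0.00828), from 5.53, 5.54 and 5.49 to 6.67, 5.97 and 6.55. Of 14 stromal markers, 11 rose beside it and 2, Lepr and Runx2, fell, and their part was not tested. Clec18a fell by 0.80 (adjusted p = 0.00163), and its other probes were below background on all 6 arrays. Clec16a (0.26) and Clec3b (tetranectin, -0.09) were not called. Clec14a and Clec3a were below background on all 6 arrays.

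In all, 18 of the 20 genes not tested were below background on all 6 arrays, which shows no signal by these probes and not that the genes are silent. Beside those named above they were Clec1a and Clec4f, and the Ly49 genes Klra5, Klra6, Klra10, Klra12 and Klra19, with the pseudogene Klrb1-ps1. The other 2 were Cd209a and Clec12b, the latter above background on 1 Ctsk-Cre;Ano1fl/fl array. The precision of every value is limited by 3 arrays per group, and 3 against 3 allows no two-sided exact permutation p under 0.1.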

How the data were processed

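RNA of RANKL-induced osteoclasts from 3 Ano1fl/fl and 3 Ctsk-Cre;Ano1fl/fl mice was hybridised to 6 Agilent one-colour mouse arrays on 1 slide, read in 1 scan. The files that the authors deposited hold spot intensities from Agilent Feature Extraction 10.7.1.1 (per the labels), with background and trends within the array removed in the processed signal and no normalization between arrays. In the series matrix, also deposited, the intensities equal the median brightness of each spot. An array had 33480 to 34951 of its 59305 transcript spots well above background and 0 saturated.

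Processed signals were log2 transformed and quantile normalized, the algorithm the study's methods name. Spots marked as outliers (143 to 252 an array) were left out and spots of a probe averaged, and 14 probes with a missing value were not used. A probe counted as well above background where at least 0.5 of its spots were. Groups were compared with limma 3.58.1 (lmFit, eBayes) in R 4.3.3 over 31848 probes, adjusted over all of them by Benjamini-Hochberg, with calls at 0.05. A gene stood by the probe with the highest mean. A gene below background in 1 group has a lower bound, in which each dim array enters at the dimmest signal that passed background there. Scripts were tested on simulated data. Other tools were Python 3.11.15 with pandas 2.3.3 and matplotlib 3.10.9, and the R package data.table in version 1.17.8.

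Values are given on every array for each member past an adjusted p of 0.05 and 2-fold, and for Clec2d, Clec5a, Clec7a, Clec4e, Mrc1, Mrc2 and Cd69. Examples beyond these were chosen after their values were seen. The members, lists and motifs were chosen with earlier results of these data known. Of 104 member probes with a RefSeq accession, 90 matched the gene table and 0 were renamed. Names and mm9 probe positions are those of the array files, and upstream sequences are RefSeq's for GRCm38.p6. Alternatives covered scaling, background correction, the filter, several probes, the test, a replicate block and each array left out. The sources do not say whether each array's culture was separate from the others beyond its mouse.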

Additional observations from a re-analysis of the deposited data

How the results depend on the processing

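The counts of lectin receptor genes called kept within 1.5 times of 17 higher and 19 lower under each alternative run. A 2-fold requirement beside the test gives 12 and 15. Over the other settings they ranged from 14 to 18 higher and from 14 to 20 lower, and from 15 to 17 and 16 to 20 when 1 array was left out. The median difference, -0.19, ranged from -0.27 to -0.07. The count lower by more than 2-fold, 15, fell to 7 with normexp background correction and to 9 with the deposited series matrix, while the count higher, 12, was 10 in both. Both settings keep an offset or background in the signal and shrink the differences of dim genes. Of 28 genes with values on every array, over 470 values for a gene and setting, 451 kept their side of the threshold, 19 lost the call and 0 reversed. Calls were lost for Klra23 (9 settings), Clec4g (8), Klra22 and Klra7, the last 2 under the methods' t-test with Benjamini-Hochberg. With normexp the difference was 5.45 for Cd209f, 2.59 for Cd209g, 0.56 for Mrc2, 0.56 for Klrb1, 1.44 for Klrb1b, 1.52 for Klrb1c, 1.86 for Klrb1a and -0.99 for Cd207. Scaling to the 75th percentile moved the median of all genes to -0.12. The methods' t-test, at the threshold of 0.05, called 18 higher and 17 lower unadjusted, a setting chosen after seeing the data, and 15 and 14 after Benjamini-Hochberg. With a replicate block for the numbers that the groups share, 16 were higher and 20 lower, and of the 28 genes Klra23 alone lost its call (adjusted p = 0.0521). The correlations of same-numbered arrays around their group means were -0.02, -0.08 and -0.09, which gave no sign of pairing. Deviations around means of 3 arrays cannot exclude that same-numbered arrays came from littermates.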
